A study of Homo sapiens with 6 samples.

Results

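The genes described here are 9 complement genes, taken by name from the 23024 gene symbols in the deposited FPKM values (reads scaled by gene length and library total). They encode the proteases C1R, C1S and CFB, the central component C3, the soluble regulators CFI and SERPING1, and the membrane regulators CD46, CD55 and CD59. They were measured in 6 RNA-seq libraries of the bladder carcinoma line 5637. The 3 NC libraries are labelled WT and the 3 sh-RAD51C libraries carry a short hairpin RNA that lowers RAD51C, a DNA repair gene. RNA of all 6 came from transfected cells. Not stated in the sources used here are the meaning of NC, the hairpin itself, and whether same-group libraries are separate cultures or 1 clone. Any spread or p-value therefore refers to these libraries and may be technical.

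The 9 genes were chosen by function and with their FPKM in NC and sh-RAD51C in view. Their differences between those groups are therefore given as a description, with no test. In RNA from whole cultures, fewer cells that express a gene and less RNA per cell cannot be told apart.

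Complement is a cascade of plasma proteins that marks surfaces and can pierce membranes. C1R and C1S are the serine proteases of the C1 complex, which starts the classical pathway. C3 is cleaved at the point where the pathways meet, and CFB supplies the catalytic subunit of the alternative pathway convertase, which cleaves more C3. Host cells are protected by CFI, a protease that inactivates C3b and C4b, by its membrane cofactor CD46, by CD55, which speeds the decay of convertases, and by CD59, which blocks the membrane attack complex. Epithelial cells make several of these proteins themselves, and inflammatory cytokines are known inducers of C3, CFB, C1R and C1S.

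RAD51C itself stood at 14.7, 13.2 and 13.6 FPKM in NC 1, 2 and 3 and at 3.51, 3.09 and 2.95 FPKM in sh-RAD51C 1, 2 and 3 (limma adjusted p = 7.16e-09; exact two-sided permutation p = 0.1, the smallest that 3 against 3 libraries allow). Inferred totals were 36068282 to 38079825 reads per library. Of 14 epithelial and urothelial markers 10 averaged at least 1 FPKM, and the uroplakins UPK1A, UPK1B, UPK2 and UPK3A did not. All 10 passed the test (limma adjusted p under 0.05), 6 higher and 4 lower in sh-RAD51C, where 23.2% of all 11152 genes tested were higher and 26.2% lower. The marker list summed to 2917 to 3009 FPKM in NC and 2679 to 2781 FPKM in sh-RAD51C. The basal keratin gene KRT5 fell from 686 ± 6.81 to 301 ± 3.04 FPKM (SD, n = 3 each, limma adjusted p = 1.84e-09). The basal transcription factor TP63 fell from 28.8 ± 0.335 to 17.8 ± 1.17 FPKM (limma adjusted p = 9.62e-07), and CDH1 was lower as well (limma adjusted p = 0.0254). The simple epithelial keratin genes went in both directions. KRT19 fell from 1074 ± 21.4 to 682 ± 13.8 FPKM (limma adjusted p = 2.61e-07). KRT7 and KRT18 rose from 407 ± 19.9 to 685 ± 13.8 FPKM and from 265 ± 5.81 to 433 ± 16.6 FPKM (limma adjusted p = 1.94e-07 and 1.57e-07). KRT8, EPCAM, GATA3 and PPARG rose too (limma adjusted p = 2.39e-05, 3.18e-06, 5.54e-06 and 9.78e-05). Liver and macrophage cells are major makers of complement, and their markers were low: 4 of 8 hepatocyte markers were matched and summed to 0.0403 to 0.0857 FPKM in NC and 0.0135 to 0.193 FPKM in sh-RAD51C. For macrophages and leukocytes 6 of 11 were matched, summing to 3.21 to 3.87 FPKM in NC and 2.51 to 3.68 FPKM in sh-RAD51C, with PTPRC at or near 0. CD14 fell from 1.57 ± 0.156 to 0.573 ± 0.334 FPKM and CD68 rose from 1.72 ± 0.165 to 2.24 ± 0.290 FPKM (limma adjusted p = 0.000576 and 0.0233). Of 9 fibroblast markers 8 were matched, summing to 14.6 to 14.9 FPKM in NC and 12.1 to 12.9 FPKM in sh-RAD51C, with COL1A1 lower, THY1 higher (limma adjusted p = 3.14e-05 and 0.00547) and COL1A2 at or near 0. All 7 endothelial markers were matched and summed to 0.182 to 0.336 FPKM in NC and 0.360 to 0.494 FPKM in sh-RAD51C. The part of these marker differences in the complement values was not tested.

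Promoter windows (250 bases before to 50 after a start) were matched in the RefSeq table (GRCh38.p14) for 6 of the 9 genes: CFB, C1R, CFI, CD46, CD55 and CD59. The windows below are those of CFB, C1R and CD59, the only ones of the 6 with a match to the motifs searched, and of C1RL, the neighbour of C1R. CFB and C1R were lower in sh-RAD51C and CD59 was higher. CFI and CD46, not shown, were lower too. They run 5′ to 3′ on the gene's strand, and capitals mark matches on either strand to 5 motifs of factors that answer cytokines: a kappaB consensus, GAS (TTCNNNGAA), an ISRE core (GAAA, any 2 bases, GAAA), C/EBP (TTGCNNAA) and AP-1 (TGANTCA).
CFB, chr6:31945845-31946144, plus strand: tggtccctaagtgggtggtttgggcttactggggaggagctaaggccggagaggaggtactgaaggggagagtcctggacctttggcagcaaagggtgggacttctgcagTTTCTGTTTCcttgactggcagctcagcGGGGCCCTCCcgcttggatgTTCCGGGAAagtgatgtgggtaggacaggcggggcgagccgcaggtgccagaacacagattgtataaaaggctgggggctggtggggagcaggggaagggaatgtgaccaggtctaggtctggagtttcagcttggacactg
C1R, chr12:7091844-7092143, minus strand: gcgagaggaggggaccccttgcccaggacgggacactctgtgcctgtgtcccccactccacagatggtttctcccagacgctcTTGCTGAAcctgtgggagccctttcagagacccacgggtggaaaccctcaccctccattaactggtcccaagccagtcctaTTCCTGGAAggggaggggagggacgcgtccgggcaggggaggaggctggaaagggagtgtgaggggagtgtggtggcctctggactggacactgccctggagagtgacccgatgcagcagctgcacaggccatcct
C1RL, chr12:7109165-7109464, minus strand: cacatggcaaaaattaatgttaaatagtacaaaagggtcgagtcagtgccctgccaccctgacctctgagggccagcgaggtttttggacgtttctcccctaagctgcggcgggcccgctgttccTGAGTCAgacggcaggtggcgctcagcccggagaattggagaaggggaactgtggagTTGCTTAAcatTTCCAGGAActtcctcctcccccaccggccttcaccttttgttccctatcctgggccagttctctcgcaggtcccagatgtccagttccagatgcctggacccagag
CD59, chr11:33722678-33722977, minus strand: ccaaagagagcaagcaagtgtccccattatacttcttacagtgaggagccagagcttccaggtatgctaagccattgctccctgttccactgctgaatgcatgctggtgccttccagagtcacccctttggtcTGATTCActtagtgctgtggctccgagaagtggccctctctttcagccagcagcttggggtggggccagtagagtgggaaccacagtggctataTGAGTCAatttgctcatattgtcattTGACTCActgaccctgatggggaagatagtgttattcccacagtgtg
The CFB window held an ISRE core match at -140, a kappaB match at -112 and a GAS match at -92, counted from the start. C1R held C/EBP at -167 and GAS at -86 in the window shown, and C/EBP at -106 in the window of its other start. C1RL held AP-1 at -125, C/EBP at -68 and GAS at -57. The CD59 window shown held 3 AP-1 matches, at -117, -23 and 3. Of the other CD59 windows, 2 held a GAS match (at -128 and -184, the same letters seen from neighbouring starts) and the remaining window held C/EBP at -191 and -53. For C1R and CD59 the window shown is thus the one with the most matches. In both genes its start lies downstream of the gene's other RefSeq starts, so it does not stand for their windows. No motif searched was present in the windows of CFI, CD46 and CD55, and the matches marked above do not overlap each other. Over all 35116 windows of the table, 11.3% held the kappaB consensus, 7.66% GAS, 3.57% the ISRE core, 10.5% C/EBP and 7.71% AP-1. These matches are descriptions of the letters and were not tested for binding.

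CFB (ENSG00000243649.8, chromosome 6 from 31945650 to 31952084, plus strand; positions here and below are GENCODE release 29 on GRCh38) had the largest difference of the 9. Its level was 32.1, 36.1 and 23.9 FPKM in NC 1, 2 and 3, and 6.48, 4.85 and 6.39 FPKM in sh-RAD51C 1, 2 and 3. The groups did not overlap, and the lowest NC library stood 3.69-fold above the highest sh-RAD51C library. The means were 30.7 ± 6.20 and 5.91 ± 0.913 FPKM (SD, n = 3 each), 5.20-fold lower in sh-RAD51C, with a log2 difference of -2.19 ± 0.13 (SE) on the log2(FPKM + 1) scale. Inferred reads were 2224 to 3353 per NC library and 446 to 611 per sh-RAD51C library. CFB shares 2249 exonic bases with AL645922.1 and 23 with C2, both on its strand. C2, its neighbour and the classical pathway counterpart of CFB, was at 0.0071 to 0.0720 FPKM in the 6 libraries.

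C3 (ENSG00000125730.16, chromosome 19 from 6677704 to 6730562, minus strand) was by far the most abundant of the 9 and ranked 201 of 11152 genes by its NC mean. It stood at 246, 245 and 220 FPKM in NC 1, 2 and 3, and at 171, 179 and 177 FPKM in sh-RAD51C 1, 2 and 3. Every sh-RAD51C library was thus below every NC library, but the step was much smaller than for CFB. Means were 237 ± 14.5 and 176 ± 4.15 FPKM (SD, n = 3 each), a level in sh-RAD51C at 74.2% of NC and a log2 difference of -0.43 ± 0.046 (SE). The ratio of CFB to C3 within a library was 0.131, 0.147 and 0.109 in NC 1, 2 and 3 and 0.0379, 0.0271 and 0.0360 in sh-RAD51C 1, 2 and 3.

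C1R and C1S lie side by side on chromosome 12, and GENCODE's models leave 9166 bases between them. C1R (ENSG00000159403.16, 7080199 to 7092607, minus strand) was at 33.6, 34.3 and 30.3 FPKM in NC 1, 2 and 3 and at 15.4, 13.0 and 14.6 FPKM in sh-RAD51C 1, 2 and 3. C1S (ENSG00000182326.14, 6988259 to 7071032, plus strand) was at 9.16, 9.22 and 8.03 FPKM in NC 1, 2 and 3 and at 3.92, 3.97 and 4.70 FPKM in sh-RAD51C 1, 2 and 3. Neither gene's groups overlapped. Mean C1R was 32.7 ± 2.14 and 14.3 ± 1.19 FPKM (SD, n = 3 each), 2.29-fold lower in sh-RAD51C, and mean C1S was 8.80 ± 0.674 and 4.20 ± 0.438 FPKM, 2.10-fold lower. Log2 differences were -1.14 ± 0.063 and -0.92 ± 0.073 (SE). The ratio of C1R to C1S was 3.67 to 3.77 in NC and 3.10 to 3.92 in sh-RAD51C, so its ranges overlapped. C1R shares 672 exonic bases with C1RL and C1S shares 229 with EMG1, on the same strand in each case. How the authors assigned reads in such stretches is not given in the sources used here.

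**Figure D1:**
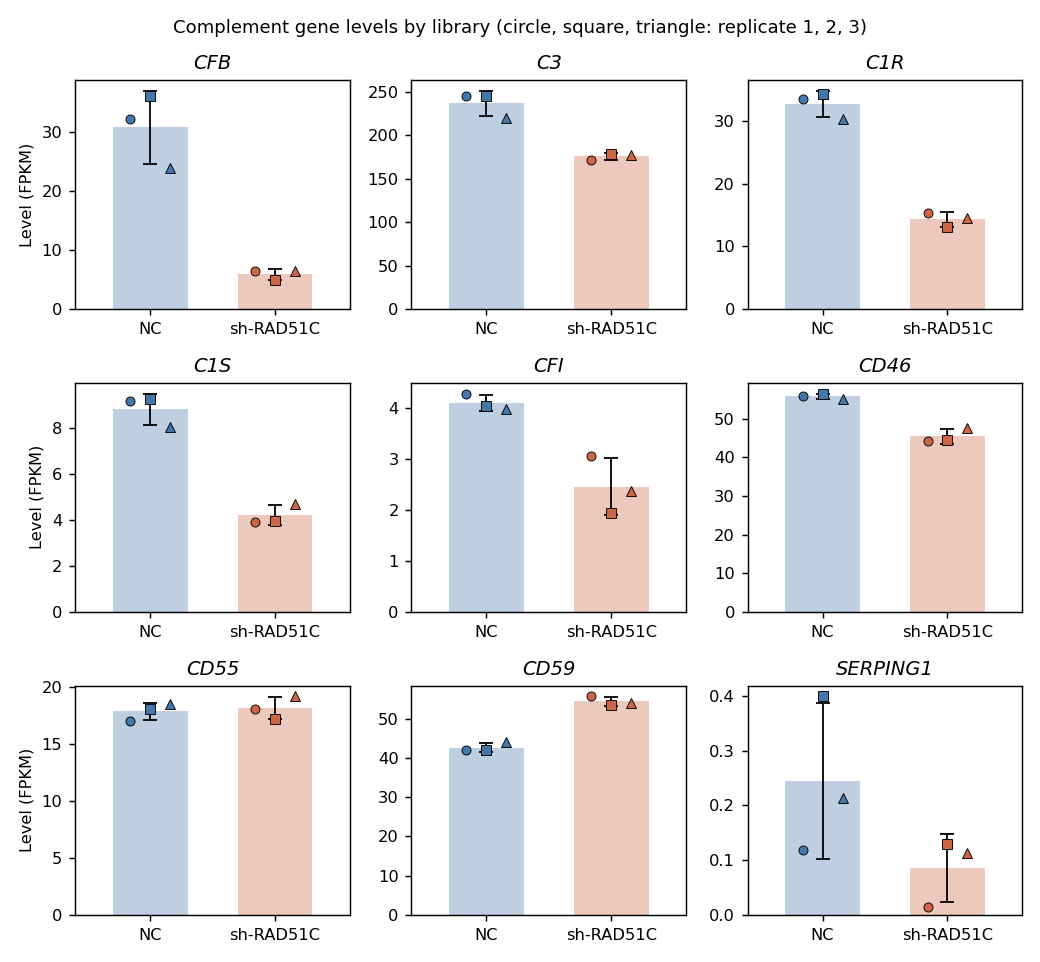
Level in FPKM (y axes, each from 0 and scaled to its gene) of the 9 complement genes in NC and sh-RAD51C libraries; points are libraries, bars are means and whiskers are SD over 3 libraries. CFB, C3, C1R, C1S, CFI and CD46 were lower in every sh-RAD51C library, CD59 was higher in every one, and CD55 and SERPING1 overlapped between groups.

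CFI (ENSG00000205403.13, chromosome 4 from 109740694 to 109802179, minus strand) was a low-level gene, at 4.29, 4.05 and 3.99 FPKM in NC 1, 2 and 3. In sh-RAD51C 1, 2 and 3 it was at 3.06, 1.95 and 2.38 FPKM, all below NC but spread more widely. Means were 4.11 ± 0.157 and 2.46 ± 0.561 FPKM (SD, n = 3 each), 1.67-fold lower in sh-RAD51C, and the log2 difference was -0.57 ± 0.099 (SE). Reads per library ran from 198 to 423. CFI shares 1562 exonic bases with AC126283.2 on its strand.

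SERPING1 (ENSG00000149131.15, chromosome 11 from 57597387 to 57614853, plus strand) encodes the C1 inhibitor, which inactivates C1R and C1S. It was barely detected, at 0.119, 0.399 and 0.214 FPKM in NC 1, 2 and 3 and 0.0141, 0.130 and 0.113 FPKM in sh-RAD51C 1, 2 and 3. The groups overlapped, since sh-RAD51C 2 was above NC 1. These levels rest on 8, 28 and 15 reads in NC and 1, 9 and 8 reads in sh-RAD51C. The group totals were 51 reads (exact 95% Poisson interval 38.0 to 67.1) and 18 reads (10.7 to 28.4), intervals that cover counting error only. The gene fell short of the mean of 1 FPKM asked of genes tested, so no log2 difference is given.

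Of the membrane regulators, CD46 was lower and CD59 higher in sh-RAD51C, and CD55 differed by less than its spread. CD46 (ENSG00000117335.19, chromosome 1 from 207752057 to 207795513, plus strand) was at 56.0, 56.4 and 55.0 FPKM in NC 1, 2 and 3 and at 44.1, 44.6 and 47.6 FPKM in sh-RAD51C 1, 2 and 3. The groups were separate, with means of 55.8 ± 0.731 and 45.4 ± 1.87 FPKM (SD, n = 3 each) and a log2 difference of -0.29 ± 0.038 (SE). CD55 (ENSG00000196352.15, chromosome 1 from 207321376 to 207386804, plus strand) was at 17.0, 18.1 and 18.5 FPKM in NC 1, 2 and 3 and at 18.1, 17.2 and 19.2 FPKM in sh-RAD51C 1, 2 and 3. Its groups overlapped almost fully, at means of 17.9 ± 0.773 and 18.2 ± 0.975 FPKM and a log2 difference of 0.02 ± 0.050 (SE), and the sign of that difference turned without NC replicate 1 (-0.01) or without sh-RAD51C replicate 3 (-0.02).

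CD59 (ENSG00000085063.15, chromosome 11 from 33703010 to 33736491, minus strand) was at 41.9, 41.9 and 43.9 FPKM in NC 1, 2 and 3 and at 55.6, 53.5 and 54.0 FPKM in sh-RAD51C 1, 2 and 3. It was the only one of the 9 that was higher in every sh-RAD51C library. Means were 42.6 ± 1.15 and 54.4 ± 1.1 FPKM (SD, n = 3 each), 1.28-fold higher, with a log2 difference of 0.35 ± 0.036 (SE). CD59 shares 629 exonic bases with AL049629.2 on its strand. The ratio of CD59 to CD46 went from 0.749, 0.743 and 0.799 in NC 1, 2 and 3 to 1.26, 1.2 and 1.14 in sh-RAD51C 1, 2 and 3. CD46 and CD59 differed in opposite directions, and the summed level of CD46, CD55 and CD59 was 115, 116 and 117 FPKM in NC 1, 2 and 3 and 118, 115 and 121 FPKM in sh-RAD51C 1, 2 and 3, which overlap. The level of C3 per summed membrane regulator was 1.87 to 2.14 in NC and 1.45 to 1.55 in sh-RAD51C.

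Of the 9 genes, 8 passed the filter on low values. Every sh-RAD51C library was below every NC library for 6 of the 8 and above for 1 (CD59), where the same held for 30.8% and 27.6% (58.4% in either direction) of all 11152 genes tested. The median log2 difference over the 8 was -0.50, against -0.01 over all genes tested. CFB, C1R and C1S were below 50% of their NC mean, as were 224 of all genes tested (2.01%). As the 9 genes were picked with this contrast in view, nothing is read from these counts or from the median.

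**Figure D2:**
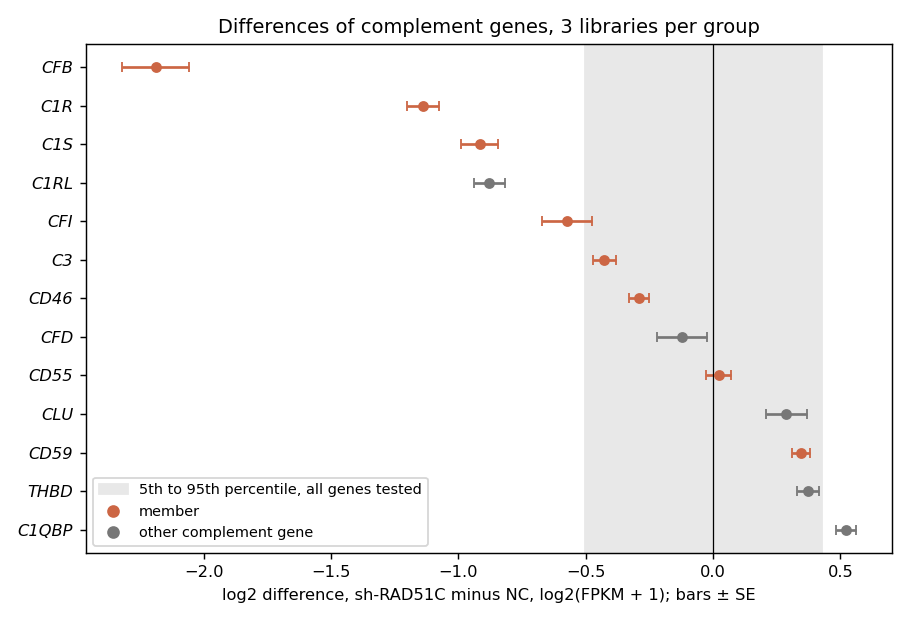
Log2 difference (sh-RAD51C minus NC, log2(FPKM + 1) scale, x axis) of 8 of the complement genes described and of 5 other complement genes that were tested, with bars of ± SE from limma on 3 libraries per group; the grey band spans the 5th to the 95th percentile of all genes tested. CFB lies farthest out at -2.19, followed by C1R at -1.14 and C1S at -0.92, while C3, CD46, CD55 and CD59 lie inside the band.

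FPKM is scaled by length, so the levels of the 9 genes can also be ordered. In NC the order of means was C3, CD46, CD59, C1R, CFB, CD55, C1S, CFI and SERPING1, and in sh-RAD51C it was C3, CD59, CD46, CD55, C1R, CFB, C1S, CFI and SERPING1. In NC the neighbours C1R and CFB did not differ beyond their spread, with library ranges of 30.3 to 34.3 and 23.9 to 36.1 FPKM. All other neighbours were separate in their ranges within each group. CD46 and CD59 stood in opposite order in the 2 groups, and CFB, which stood above CD55 in every NC library, stood below it in every sh-RAD51C library.

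**Figure D3:**
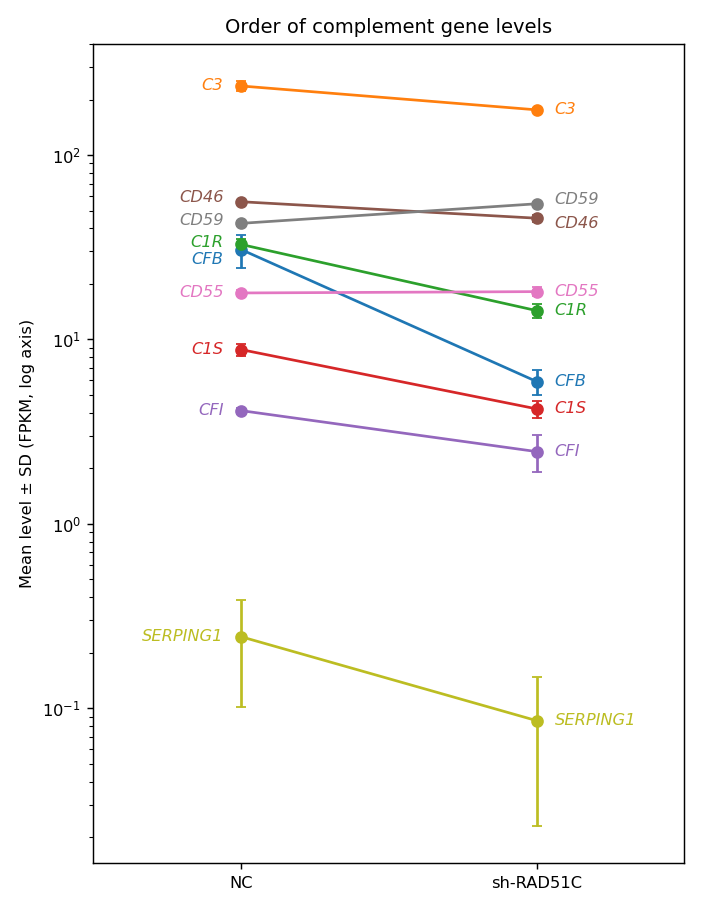
Mean level ± SD (FPKM, log y axis, 3 libraries) of the 9 complement genes in NC and sh-RAD51C, joined by gene. The lines of CD46 and CD59 cross, and CFB lies at 30.7 FPKM in NC and at 5.91 FPKM in sh-RAD51C, above and then below CD55.

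The libraries of a group were not equally close for all 9 genes. The coefficient of variation in NC was 20.2% for CFB and 58.5% for SERPING1, but 1.31% for CD46 and 2.70% for CD59. In sh-RAD51C it was 15.5% for CFB and 22.8% for CFI, against 2.36% for C3 and 2.03% for CD59. Among NC libraries, NC 3 was the lowest for 6 of the 9 genes (CFB, C3, C1R, C1S, CFI and CD46) and the highest for CD55 and CD59, whereas it was the lowest for 27.5% and the highest for 43.4% of all genes tested. Without NC replicate 3 the log2 difference was -2.35 for CFB and -1.19 for C1R. In sh-RAD51C, replicate 2 was the lowest for 5 of the 9 genes (CFB, C1R, CFI, CD55 and CD59) and replicate 1 for the other 4, against 30.4% and 41.5% of all genes tested.

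Other complement genes were taken from lists of 51 symbols, of which 34 were matched; the other 17 were not analysed here. A mean of at least 1 FPKM was reached by 5 of them, and 1 was lower, 3 were higher and 1 was not called (limma, Benjamini-Hochberg adjusted p under 0.05), where 49.4% of all 11152 genes tested were called, 26.2% lower and 23.2% higher. Their median log2 difference was 0.29, against -0.01 over all genes tested. C1RL, a protease relative of C1R, fell from 11.3 ± 0.484 to 5.68 ± 0.485 FPKM (SD, n = 3 each), a log2 difference of -0.88 ± 0.061 (SE, limma adjusted p = 8.43e-07). It shares 672 exonic bases with C1R on the same strand, so its call may not be separate from the values of C1R.

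THBD, thrombomodulin, a membrane protein that helps activate an enzyme known to inactivate complement peptides, rose from 75.3 ± 3.08 to 97.8 ± 4.27 FPKM (limma adjusted p = 3.56e-05). C1QBP, a mostly mitochondrial protein named for binding the globular heads of C1q, rose from 90.4 ± 2.05 to 130.3 ± 5.41 FPKM (limma adjusted p = 1.34e-06). CLU, the soluble inhibitor clusterin, rose from 1.24 ± 0.227 to 1.73 ± 0.0602 FPKM (log2 difference 0.29 ± 0.081, limma adjusted p = 0.0125). That call was lost without NC replicate 1 (limma adjusted p = 0.0523), without the filter on low values (0.0655) and at a threshold of 0.01, in a range from 0.00284 to 0.0655. CFD, the protease that cleaves CFB, was at 1.23 ± 0.180 and 1.05 ± 0.240 FPKM and did not pass (limma adjusted p = 0.321).

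Most of the remaining complement genes were close to 0, and 22 of the 34 averaged under 0.1 FPKM. With the filter lowered to a mean of 0.1 FPKM, 12 of the 34 were tested and 8 were called, 3 lower and 5 higher, where 39.7% of all 15089 genes were called. C5, from which the terminal pathway starts, was at 0.945, 1.2 and 1.24 FPKM in NC 1, 2 and 3 and at 0.534, 0.511 and 0.667 FPKM in sh-RAD51C 1, 2 and 3. It was lower in every sh-RAD51C library (113 to 277 reads per library), with a limma adjusted p of 0.00168, or 0.00957 with no filter. COLEC10, a lectin pathway collectin, was lower too (4 to 45 reads, limma adjusted p = 0.00739, or 0.00773 with no filter). C4BPB, a chain of the C4b-binding protein, was higher but at 2 to 8 reads in NC and 19 to 27 in sh-RAD51C (limma adjusted p = 0.00848, or 0.00494 with no filter). CR2, a C3d receptor gene that lies between CD55 and CD46, was at 0.605 ± 0.00772 and 0.860 ± 0.107 FPKM (limma adjusted p = 0.0246, or 0.0359 with no filter). CFP, C8G and ITGB2 did not pass at either setting.

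Within 250 kb of the start of C1R, 17 other genes were tested. Of these, 11 were lower, 2 were higher and 4 were not called, where 26.2% of all genes tested were called lower and 23.2% higher. The 11 are not all separate, since they include C1RL, which shares 672 exonic bases with C1R, and its antisense gene C1RL-AS1. ENO2, a neuronal enolase, fell from 15.9 ± 0.656 to 8.62 ± 0.685 FPKM (limma adjusted p = 1.00e-06), and LPCAT3, a phospholipid remodelling enzyme near C1S, from 18.8 ± 1.01 to 13.8 ± 1.02 FPKM (limma adjusted p = 0.000124). CLSTN3, which encodes calsyntenin 3 and lies beyond C1RL, fell from 8.29 ± 0.627 to 5.53 ± 0.138 FPKM (limma adjusted p = 4.08e-05). EMG1, a ribosome biogenesis gene, rose from 8.25 ± 0.164 to 10.9 ± 0.602 FPKM (limma adjusted p = 0.000176). C1RL-AS1 was also lower (limma adjusted p = 7.43e-05), but it is antisense to C1RL and strand use is not stated, so its reads cannot be told apart from those of C1RL. This window, and these genes as examples, were chosen after values were seen, so nothing is read from the counts.

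**Figure D4:**
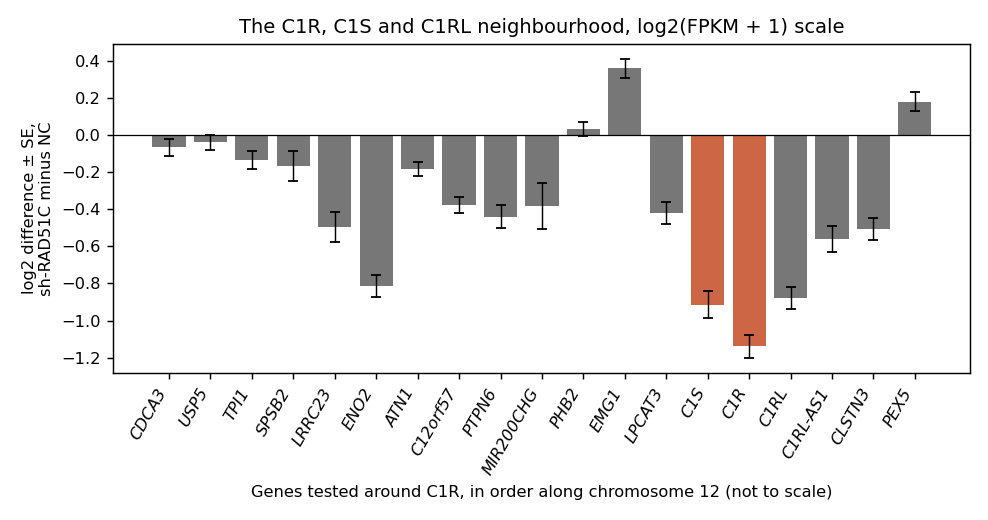
Log2 difference ± SE (sh-RAD51C minus NC, log2(FPKM + 1) scale, y axis) of the genes tested within 250 kb of the start of C1R, in their RefSeq order along chromosome 12, with C1R and C1S in orange. The bars of C1S, C1R, C1RL and ENO2 reach farthest down, from -0.81 to -1.14. EMG1 and PEX5, which were called higher, point up, as does PHB2 at 0.03, which was not called.

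Taking the nearest tested gene on either side of each of the 9 genes, by GENCODE start, gave 15 genes. Of these, 7 were lower, 4 higher and 4 not called, where 26.2% of all genes tested were lower and 23.2% higher. The 7 include C1RL-AS1, whose reads cannot be told apart from those of C1RL. EMG1, 1 of the 4 higher, flanks C1S by GENCODE start, but in RefSeq order LPCAT3 lies between them. The neighbour rule too was chosen after values were seen, so nothing is read from its counts. GAR1 beside CFI rose from 26.0 to 35.5 FPKM (limma adjusted p = 9.41e-06), opposite in direction to CFI. GPR108 beside C3 was at 26.3 and 22.7 FPKM (limma adjusted p = 0.00119), and SKIV2L beside CFB at 15.0 and 12.7 FPKM (limma adjusted p = 0.00475), both lower. YOD1 and PLXNA2, which flank the CD55 and CD46 cluster, did not pass (limma adjusted p = 0.0907 and 0.454).

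A list of regulators of complement transcription held transcription factors, cytokine receptors, their kinases and feedback inhibitors such as NFKBIA and the SOCS genes, so it is not a list of activators alone. Of 26 listed, 25 were tested, and 20 were lower, 2 higher and 3 not called. The median log2 difference was -0.32, against 26.2% called lower and a median of -0.01 over all genes tested. This list and the acute phase list were chosen with earlier results of these data known, so nothing is read from their counts. The 5 regulators named below have the smallest p, and the 2 higher ones are not among them. The interferon gamma receptor subunit IFNGR1 fell from 71.8 ± 1.80 to 39.8 ± 2.74 FPKM (SD, n = 3 each, limma adjusted p = 2.03e-07) and the transcription factor CEBPA from 7.35 ± 0.530 to 2.48 ± 0.351 FPKM (limma adjusted p = 3.47e-07). OSMR, the oncostatin M receptor, was 1.43-fold lower, NFKBIA, the NF-kB inhibitor and target, 1.52-fold lower and STAT2 1.5-fold lower, with limma adjusted p of 2.93e-06, 4.04e-06 and 6.67e-06. Of 17 acute phase genes, 12 were matched and 4 tested; 3 were lower and 1 higher, where 26.2% and 23.2% of all genes tested were, and the median log2 difference of the 4 was -0.36, against -0.01 over all genes tested. SAA1 fell from 129 ± 13.5 to 92.1 ± 6.07 FPKM and LCN2, lipocalin 2, from 2265 ± 107 to 1786 ± 113 FPKM, with SAA2 lower as well (limma adjusted p = 0.000183, 0.000572 and 0.00198). SAA1 and SAA2 are near-identical in sequence, which leaves their separate values uncertain. PTX3, a pentraxin that binds C1q, rose from 3.67 ± 0.658 to 8.68 ± 0.329 FPKM (limma adjusted p = 2.88e-06).

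CD55 and CD59 are held in the membrane by a GPI anchor. Of 31 genes of GPI anchor synthesis and remodelling, 29 were tested; 9 were lower, 1 higher and 19 not called, where 26.2% of all genes tested were lower, 23.2% higher and 49.4% called in either direction. The median log2 difference of the 29 was -0.08, against -0.01 over all genes tested. PIGW rose from 11.7 ± 0.602 to 16.5 ± 0.277 FPKM (limma adjusted p = 1.22e-05), while PIGA, a subunit of the enzyme of the initial step, fell from 8.83 ± 0.101 to 6.65 ± 0.212 FPKM (limma adjusted p = 0.000104). PGAP1, PGAP4 and PGAP3 were also lower (limma adjusted p = 0.000345, 0.000594 and 0.000856).

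The genes whose log2(FPKM + 1) pattern over the 6 libraries was most like that of CFB, by Pearson r among 7369 genes averaging at least 5 FPKM, were DCAKD, ALDH16A1, NAT14, TNFAIP2 and ASS1 (r from 0.999 to 0.998). TNFAIP2, a gene named for induction by TNF, stood at 194 ± 18.2 and 80.3 ± 5.15 FPKM, and ASS1, argininosuccinate synthase, at 111 ± 10.7 and 37.8 ± 4.71 FPKM (SD, n = 3 each). For C3 they were SUDS3, PXYLP1, NBR1, RPS6KA1 and OSMR (r from 0.998 to 0.993). An r of at least 0.95 was reached by 705 genes for CFB and 531 for C3; with 2 groups of 3 libraries, any gene with a clear group difference in the same direction scores high.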

How the data were processed

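Total RNA was taken with TRIzol and libraries were made with the VAHTS Universal V6 kit, per the labels' protocols. The deposited values are FPKM calculated by the authors, 1 column per library. Build hg38, R 3.2.0 and DESeq2 are named without a role, per the submitters' processing notes; the sources used here name no aligner, counting program, strand setting or annotation. Each of the 6 columns matched a sample title, and 0 were left unused.

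Whole reads were inferred from the FPKM steps for 11151 of 11152 genes (within 0.001 reads), with library totals found from RefSeq gene lengths; they describe depth only, apart from an added alternative. No library was a repeat of another: chi-square over degrees of freedom was 3.69 to 14.3 within groups.

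Genes averaging 1 FPKM or more were fitted as log2(FPKM + 1) in limma 3.58.1 (R 4.3.3; trend, no covariate, Benjamini-Hochberg over 11152 genes, called under 0.05). This scale understates differences of low genes. The fit was also run on simulated data with far fewer genes changed than the 49.4% called here, so that run does not vouch for it on these libraries. The members and lists were chosen with earlier results of these data known, so nothing is read from counts over them. Named are the 9 members, RAD51C, other complement genes past the filter (except 1, which is not reported here and enters no list count), up to 5 called genes per related list by smallest p, the 5 genes most like CFB (largest difference) and C3 (highest level), and markers at 1 FPKM; low complement genes and chromosomal neighbours were added after values were seen. Alternatives covered pseudocount, filter, scaling, variance model, a replicate block, a threshold of 0.01 and omission of each library; voom on inferred reads and a filter of 0.1 FPKM were chosen after seeing the data. Python 3.11.15, pandas 2.3.3 and scipy 1.17.1 did the rest.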

Additional observations from a re-analysis of the deposited data

How the results depend on the processing

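Over the alternatives, each leaving out 1 library or changing 1 setting, the log2 difference ranged from -2.37 to -2.07 for CFB, -1.19 to -1.08 for C1R, -1.07 to -0.88 for C1S, -0.76 to -0.46 for CFI, -0.48 to -0.40 for C3, -0.34 to -0.27 for CD46 and 0.30 to 0.37 for CD59, with no change of sign, and from -0.02 to 0.06 for CD55. Voom on inferred reads gave -1.07 for C1S and -0.76 for CFI, and CFI was too low to be tested when a mean of 5 FPKM was asked. RAD51C stayed between -2.12 and -1.78. The count of genes called (5511) was 4522 to 5464 with 1 library left out, and genes called lower numbered 1859 at a mean of at least 5 FPKM (2922 at 1 FPKM), where fewer genes are tested. Other complement genes called numbered 8 when a mean of 0.1 FPKM sufficed and 8 with no filter, against 4, since more are tested there, and 3 to 4 with 1 library left out. With the replicate number as a block, 5569 genes and 4 other complement genes were called, and RAD51C was at -1.83. Same-numbered libraries' deviations correlated at 0.19, 0.026 and 0.091. NC 1 and NC 2 correlated best with the sh-RAD51C library of their own number, and NC 3 with sh-RAD51C 2 (0.11). These values do not settle whether the numbers are pairs, and the main fit did not take them as such. Depth limits SERPING1 most, at 1 to 28 reads per library.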
